A study of Rattus norvegicus with 9 samples.

Results

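The cytosolic ribosomal protein genes of the rat dorsal root ganglion (DRG) were taken from a table of 20194 genes. Every gene whose symbol begins with Rpl or Rps followed by a number was included, with Rplp0, Rplp1, Rplp2 and Rpsa, and without the Rps6k kinases and Rps19bp1. This gave 89 gene IDs, which are called genes below. Rps19 stands under 2 of them, and Rps9 and Rps9l1 hold identical values, so counts of genes are counts of IDs. They comprised 43 genes of the large (60S) subunit body, 3 of its P stalk, 32 of the small (40S) subunit and 11 further copies such as Rpl7l1, Rpl22l1 and Rps27l. Only genes that reached 1 FPKM in some library were tested, which kept 14305 genes in all and 88 of these 89. Rpl3l, the paralog of Rpl3 that is best known from striated muscle, was the one below this limit (0 to 0.24 FPKM).

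The study's 3 conditions had 3 libraries each, all from adult male Sprague Dawley rats. Sham rats had the operation without nerve transection. SNI rats (spared nerve injury) had the tibial and common peroneal nerves cut and ligated while the sural nerve was left, which is a standard model of neuropathic pain. SNI + G15 rats received in addition G15, an antagonist of the G protein-coupled oestrogen receptor GPER. The labels of all 9 libraries carry the same text, by which an intrathecal catheter was placed on SNI day 5 and drugs in 2% DMSO were given through it for 24 h (the methods give another percentage). They mark the sham and SNI libraries as G15 controls without saying whether these rats received the vehicle. The methods describe ipsilateral lumbar ganglia of 3 rats per group. The paper's supplement lists a larger number of rats for RNA sequencing, so the number of rats behind each library is not certain. Each library holds whole ganglia, so a change in the mixture of cells and a change in RNA per cell cannot be told apart.

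Each ribosome holds 1 copy of most of these proteins, and the cell makes them in equal numbers from separate genes. Their messages share a start known as the 5' terminal oligopyrimidine (TOP) tract, a C followed by a run of C and T, through which the kinase mTORC1 controls how strongly they are translated. In sensory neurons they are also known as messages that are carried into axons and translated there after injury. Mammalian genomes hold many processed copies of these genes, and their mature messages are short. These features matter for how reads are assigned and how levels are scaled.

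The start regions of the genes are shown first because the tract is the sequence that the family shares. RefSeq windows of 250 bases before to 50 bases after the annotated start (GRCr8) were found for 69 of the 89 genes, in 70 windows. A run of at least 8 pyrimidines that overlapped the 20 bases on either side of the start was present in 52 of the 70 windows (74.3%), against 21% of 33469 windows of all genes. A C exactly at the annotated start followed by 4 pyrimidines was present in 22 windows (31.4%, against 2.63% of all windows). The letters CGGAAG, the core bound by ETS factors, were found on either strand in 55.7% of the windows, against 16.6% of all windows and 28.5% of 12563 windows of tested genes. TATAAA on either strand was found in 12.9%, against 14.2% of all windows and 7.44% of those of tested genes. The 30 bases before and 30 bases from the start are given below for the 5 most abundant genes of sham ganglia that had a window, for the stalk protein gene Rplp0, and for 2 paralogs without a long run, Rpl7l1 and Rpl22l1. Capitals mark the longest pyrimidine run near the start on the sense strand.
Rpl13a, chr1:104748884-104748943, minus strand: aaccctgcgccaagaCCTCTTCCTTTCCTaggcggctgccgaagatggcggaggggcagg
Rps16, chr1:92770628-92770687, plus strand: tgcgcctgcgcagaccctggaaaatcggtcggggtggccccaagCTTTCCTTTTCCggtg
Rpl41, chr7:1563468-1563527, minus strand: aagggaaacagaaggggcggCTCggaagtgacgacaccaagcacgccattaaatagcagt
Rps7, chr6:50999416-50999475, minus strand: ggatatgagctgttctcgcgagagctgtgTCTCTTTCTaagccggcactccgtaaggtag
Rps15, chr7:10068086-10068145, minus strand: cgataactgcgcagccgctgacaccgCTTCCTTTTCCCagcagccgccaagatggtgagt
Rplp0, chr12:46718361-46718420, minus strand: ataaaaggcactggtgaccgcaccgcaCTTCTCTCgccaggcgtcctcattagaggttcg
Rpl7l1, chr9:21695688-21695747, plus strand: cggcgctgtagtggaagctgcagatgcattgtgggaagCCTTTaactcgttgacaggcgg
Rpl22l1, chr2:113683166-113683225, plus strand: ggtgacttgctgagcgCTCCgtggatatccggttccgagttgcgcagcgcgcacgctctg
The run was 8 to 14 bases long in Rpl13a, Rps16, Rps7, Rps15 and Rplp0, 3 bases in Rpl41, 5 in Rpl7l1 and 4 in Rpl22l1. An annotated start can lie away from the start used in the tissue, so a short run says only that these letters are not at the annotated start.

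The libraries were of like size (18484557 to 18756736 estimated counts). The neuronal intermediate filament gene Prph, a marker of the tissue, was present in all 9 libraries at 1310 to 1783 FPKM. Atf3, a gene switched on in axotomized neurons, read 3.61 to 4.30 FPKM in sham, and after injury 138 to 143 (SNI) or 132 to 140 (SNI + G15). The groups differed in how counts depended on gene length. The slope of the log2 count deviation against log2 length over genes that are no ribosomal protein genes was -0.03, -0.041 and -0.116 in SNI + G15 replicates 1, 2 and 3. It lay between -0.0023 and 0.074 in the sham and SNI libraries. All SNI + G15 libraries thus lay below the others, so the length effect and the treatment cannot be told apart. SNI + G15 replicate 3, the lowest, had the highest FPKM of its group for 73 of the 88 tested genes. In sham, replicate 2 was the highest for 80 of 88.

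In sham ganglia 77 of the 89 genes had a mean FPKM of 100 or more, and the median over the 89 was 279 FPKM. FPKM is scaled by length, but it holds only the reads assigned to each gene ID, and some similar copies read higher than the named gene. In sham, Rpl35a and Rpl30 averaged 0 and 2.55 FPKM. Their copies Rpl35a-ps6 and Rpl30l2 read 154 to 181 and 207 to 260 FPKM. Levels of genes with such copies are therefore not plainly comparable with those of other genes. Among the most abundant were Rpl13a (625 ± 40.3 FPKM, SD, n = 3), Rps16 (601 ± 71.2), Rpl23a (598 ± 16.9) and Rpl41 (588 ± 60.2). Their order is not fixed, since no pair differed by more than the larger of its 2 SDs. The 12 genes under 100 FPKM included most of the further copies, and also Rpl30, Rpl35a and Rpl9, which have such copies.

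As a group the 89 genes took 1.43%, 1.63% and 1.47% of the estimated counts in the sham libraries. They took 1.65%, 1.60% and 1.55% in the SNI libraries and 2.00%, 2.09% and 2.31% in the SNI + G15 libraries. The sham and SNI ranges overlapped, and all 3 SNI + G15 libraries lay above the other 6.

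**Figure D1:**
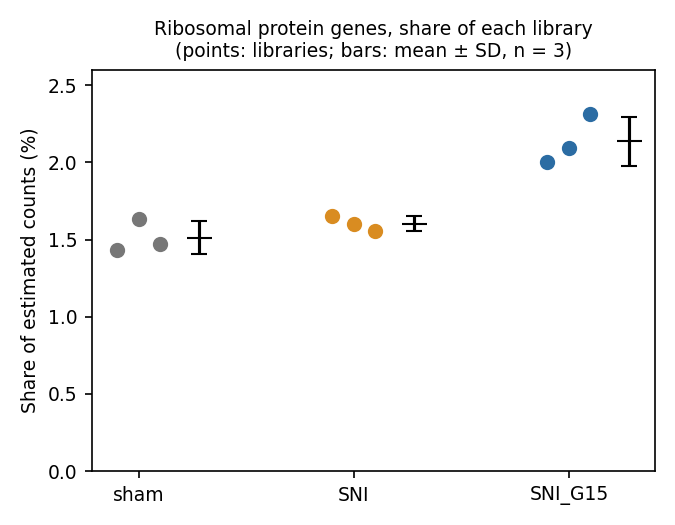
Share of the estimated counts of each library taken by the 89 ribosomal protein genes, in percent, by group (points are libraries, bars the mean ± SD, n = 3). The 3 SNI + G15 libraries, from 2.00% to 2.31%, sit above the sham and SNI libraries, which lie between 1.43% and 1.65%.

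The comparison of SNI + G15 with SNI asks what the antagonist changed in injured ganglia. Ribosomal protein messages were higher in SNI + G15 across both subunits. By edgeR's quasi-likelihood test, with p adjusted over all 14305 genes, 75 of 88 were higher and none was lower at an adjusted p below 0.05, against 7.98% of all tested genes called higher and 7.25% called lower. At an unadjusted p below 0.05 the number lower was also 0, and DESeq2 called 77 higher and 0 lower. At this threshold 38 of 43 genes of the 60S body, 29 of 32 of the 40S subunit, 2 of 3 of the P stalk and 6 of 10 tested further copies rose. Among the copies called was Rpl39l, which passed the FPKM limit only through SNI + G15 libraries. The median log2 fold change was 0.43 (1.35-fold), with quartiles of 0.36 and 0.50, beside a median of 0.01 over all tested genes. The 3 SNI + G15 values lay above the 3 SNI values for 78 of 88 genes, where 19.4% of all tested genes showed this pattern. Without SNI + G15 replicate 3 the count was again 75, with a median of 0.37. The sizes given here and for single genes below are without the correction for gene length that is described further on.

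The P stalk of the large subunit recruits the elongation factors. Rplp0, which anchors it, read 539, 547 and 536 FPKM in SNI and 661, 666 and 714 in SNI + G15. The groups did not overlap, and the log2 fold change was 0.35 ± 0.042 (SE, edgeR adjusted p = 0.00122). Rplp2 read 355, 351 and 341 FPKM in SNI and 421, 450 and 536 in SNI + G15 (log2 fold change 0.44 ± 0.085, edgeR adjusted p = 0.0104, and 0.0516 without SNI replicate 3). Its partner Rplp1 read 174, 190 and 248 FPKM against 198, 285 and 257. Here the groups overlapped and the test was not passed (log2 fold change 0.29 ± 0.15, edgeR adjusted p = 0.229).

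In the small subunit, Rpsa, which is also known as the laminin receptor, read 499, 494 and 477 FPKM in SNI and 604, 641 and 704 in SNI + G15 (log2 fold change 0.42 ± 0.059, edgeR adjusted p = 0.00241). Rps6 encodes the substrate of S6 kinase, whose phosphorylation, and not its message, is widely used to read mTORC1 activity. Its message read 514, 511 and 475 FPKM against 609, 621 and 710 (0.39 ± 0.066, edgeR adjusted p = 0.0062). All 3 treated values lay above the injured ones for both genes. Rps27a, which is made as a fusion with ubiquitin, rose from 298, 271 and 281 FPKM to 338, 340 and 436, with replicate 3 the highest (log2 fold change 0.40 ± 0.098, edgeR adjusted p = 0.0268). Its adjusted p was 0.0566 to 0.107 when any 1 of the SNI replicates was left out. Rps2 rose by 0.47 and Rps16 by 0.48 on the log2 scale, near the median of the group.

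In the large subunit, Rpl5 and Rpl11 bind the 5S RNA and, when ribosome assembly fails, the p53 ligase Mdm2. Rpl5 read 243, 240 and 234 FPKM in SNI and 292, 297 and 317 in SNI + G15 (log2 fold change 0.35 ± 0.046, edgeR adjusted p = 0.00174). Rpl11 read 288, 295 and 285 FPKM against 364, 391 and 405 (0.43 ± 0.051, edgeR adjusted p = 0.001). Rpl3, which reaches close to the peptidyl transferase centre, rose by 0.35 ± 0.047 on the log2 scale (edgeR adjusted p = 0.002). Among the largest called differences were those of Rpl41 and Rpl39, which encode very short proteins. Rpl41 rose by 0.68 ± 0.11, from 676, 675 and 565 FPKM to 874, 973 and 1187. Rpl39, which sits at the exit tunnel, rose by 0.80 ± 0.11, from 185, 155 and 139 FPKM to 247, 275 and 305 (edgeR adjusted p = 0.0023). Over the alternative fits, which include those with a length correction, the lowest values were 0.36 for Rpl41 and 0.40 for Rpl39. For Rpl11 and Rps6 they were 0.20 and 0.19. The abundant Rpl13a and Rpl23a rose by 0.49 and 0.36 on the log2 scale. At the low end, Rpl12 differed by 0.21 ± 0.074 and was not called (edgeR adjusted p = 0.0904, and 0.0374 without SNI + G15 replicate 1).

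**Figure D2:**
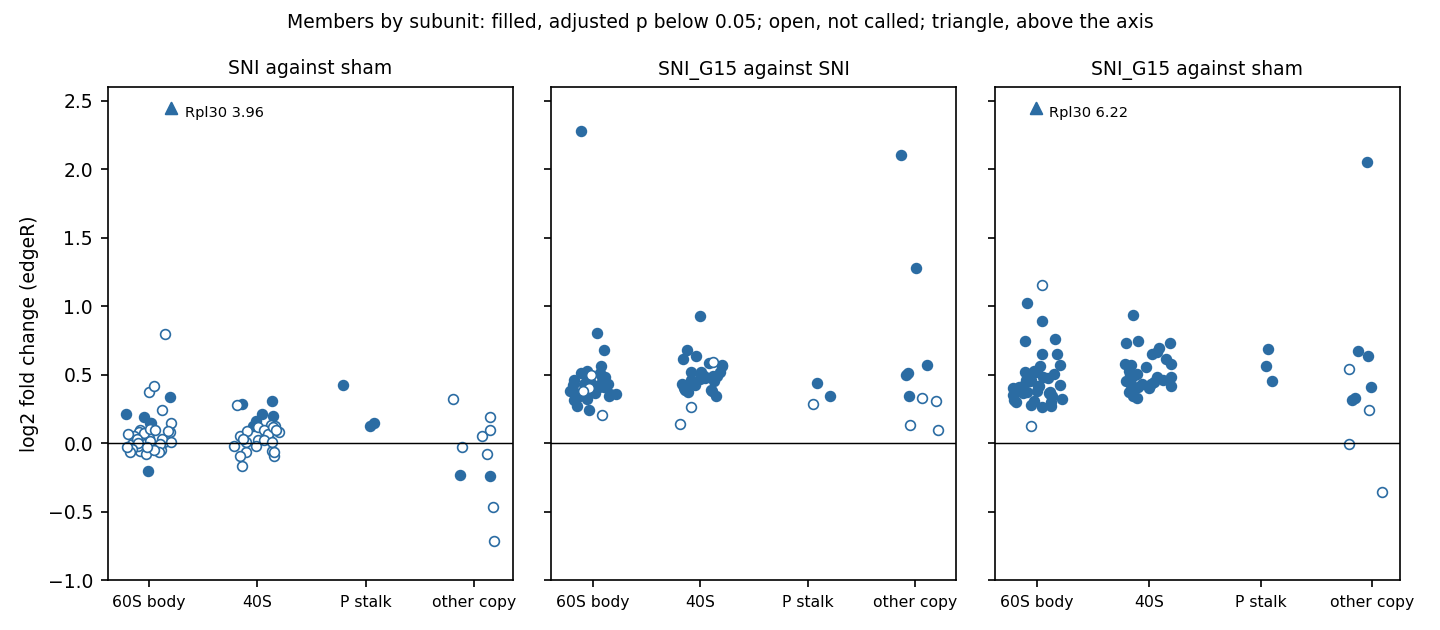
log2 fold change by edgeR of every tested gene in the 3 comparisons, by subunit (filled, adjusted p below 0.05; open, not called). Rpl35a, listed at 0 in 8 of 9 libraries, is left out, and Rpl30 lies above the axis in 2 panels at 3.96 and 6.22. In SNI + G15 against SNI the points gather around 0.43 in both subunits, and in SNI against sham around 0.05.

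Some ribosomal proteins have a paralog that can take the place of the canonical one, and the pairs were compared in SNI + G15 against SNI. Rpl22 rose by 0.51 ± 0.077 and its paralog Rpl22l1, whose message Rpl22 is known to repress, by 0.50 ± 0.12 (edgeR adjusted p = 0.00338 and 0.0297). Rps27 and Rps27l, a p53 target, rose by 0.50 ± 0.065 and 0.51 ± 0.12 (edgeR adjusted p = 0.00152 and 0.0258). Rpl36a rose by 0.53 ± 0.11, while Rpl36al differed by 0.31 ± 0.095 and was not called (edgeR adjusted p = 0.0612). Rps4x rose by 0.43 ± 0.042, while Rps4y2 differed by 0.33 ± 0.17 at 4.29 to 9.49 FPKM and was not called. Without SNI + G15 replicate 1, Rpl36al and Rps4y2 passed the test (edgeR adjusted p = 0.0201 and 0.0433). The calls of Rpl22l1 and Rpl36a were lost without SNI replicate 2 or 3 (0.108 and 0.113 for Rpl22l1, 0.0745 each for Rpl36a). That of Rps27l was lost without any 1 SNI replicate or without SNI + G15 replicate 1 (edgeR adjusted p = 0.0532 to 0.0931). The differences within these pairs were not tested.

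Rpl7 and Rpl7l1 stood furthest apart among the pairs with ordinary levels. Rpl7 rose by 0.47 ± 0.063 (edgeR adjusted p = 0.00192). Rpl7l1, a nucleolar protein of ribosome assembly rather than of the mature ribosome, read 28.2, 25.7 and 26.8 FPKM in SNI and 27.9, 28.6 and 29.0 in SNI + G15, with overlapping groups (0.10 ± 0.05, edgeR adjusted p = 0.221). Its effective length of 2516 bases was the longest of the 88 and its window lacked a long pyrimidine run. Over the tested members with a window, the median log2 fold change was 0.41 with a run of at least 8 (51 genes) and 0.45 without one (17 genes). Whether the run or the length bears on the values of Rpl7l1 was not tested.

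A pair of paralogs that are best known from testis was near the detection limit. Rpl39l had estimated counts of 1, 4 and 2 in SNI and 8, 9 and 14 in SNI + G15, beside 2, 2 and 3 in sham. The groups did not overlap, with a log2 fold change of 2.10 ± 0.55 (edgeR adjusted p = 0.0362), and the call was lost without any 1 SNI replicate, or without SNI + G15 replicate 2 or 3 (edgeR adjusted p = 0.0574 to 0.128). Rpl39l read 0.90, 1.01 and 1.55 FPKM in SNI + G15 and 0.11 to 0.45 in sham and SNI. It thus passed the limit of 1 FPKM only through the group in which it was high, and its call is no support for a rise. Rpl10l had 15, 22 and 19 counts in SNI and 42, 43 and 50 in SNI + G15 (1.28 ± 0.23, edgeR adjusted p = 0.00753), beside 20, 37 and 33 in sham. Its canonical partner Rpl10 rose by 0.27 ± 0.045.

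Apart from Rpl35a, which was at 0 in 8 libraries, the widest outlier was the 60S gene Rpl30, and a copy of it ran the other way. Rpl30 had 12.5, 49.5 and 0 estimated counts in sham, 371, 324 and 296 in SNI and 1429, 1599 and 1751 in SNI + G15. The 3 groups did not overlap, and its fitted log2 fold changes were 3.96 for SNI against sham and 2.28 for SNI + G15 against SNI. The copy, named Rpl30l2 in RefSeq, had 1752, 2223 and 1784 counts in sham, 1663, 1737 and 1490 in SNI and 1203, 1205 and 1548 in SNI + G15. Summed over Rpl30 and its copies, the family had 1769, 2277 and 1793 counts in sham, 2039, 2065 and 1791 in SNI and 2636, 2809 and 3306 in SNI + G15. The sum was not called in SNI against sham (log2 fold change -0.02 ± 0.089, edgeR adjusted p = 0.896). It rose in SNI + G15 against SNI by 0.58 ± 0.087 (edgeR adjusted p = 0.00298).

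Rpl35a was listed at 0 in 8 libraries and at 9.48 counts in the other one, SNI replicate 1. The counts of this family were at the copies named Rpl35al1, with 0 to 1205 counts, and Rpl35a-ps6, with 975 to 1615. Their sum rose by 0.33 ± 0.051 in SNI + G15 against SNI (edgeR adjusted p = 0.00353). Rps19, the gene most often mutated in Diamond-Blackfan anaemia, was present under 2 gene IDs. The ID 29287 differed by 0.14 ± 0.10 and was not called, while the ID 108348115 rose by 0.93 ± 0.20 (edgeR adjusted p = 0.367 and 0.0156, the second being 0.0713 without SNI replicate 2). Their sum rose by 0.50 ± 0.083 (edgeR adjusted p = 0.00474). Rps9 and Rps9l1 had identical values in all 9 libraries and are therefore 1 measurement, not 2, though both are counted among the tested genes.

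**Figure D3:**
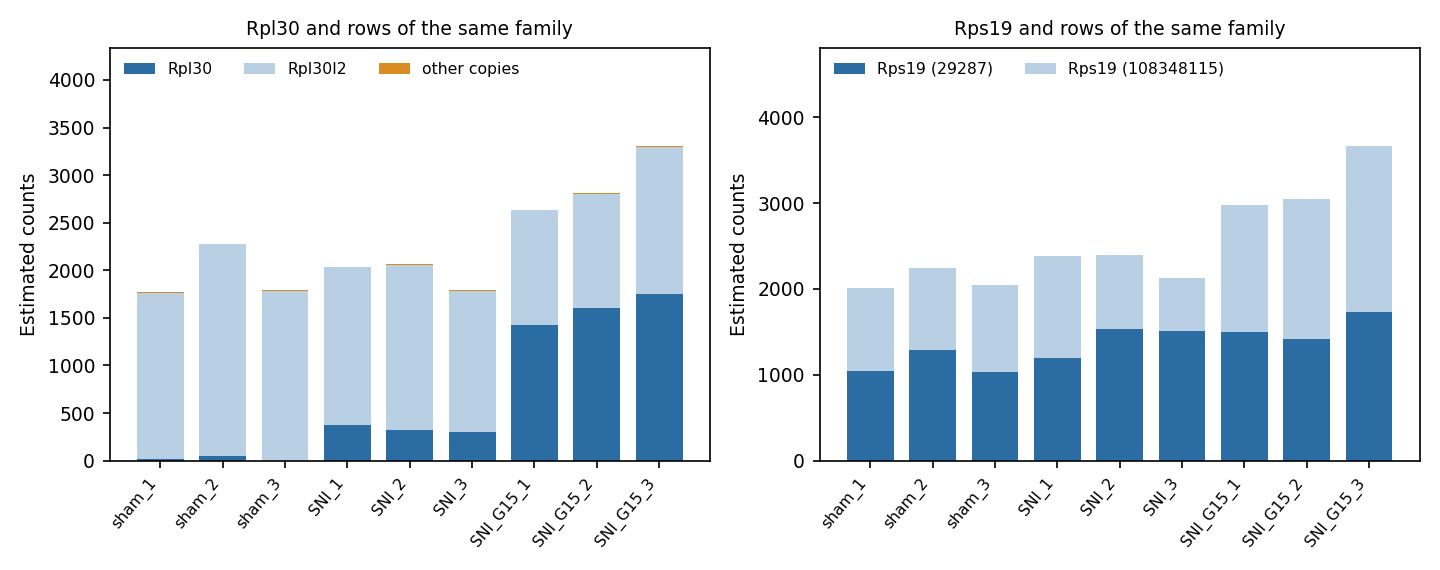
Estimated counts per library of Rpl30 with its copies and of the 2 gene IDs of Rps19 (stacked bars). The Rpl30 row lies at 0 to 49.5 counts for sham and at 1429 to 1751 for SNI + G15, while the whole bar lies at 1769 to 2277 and at 2636 to 3306.

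An estimated count can be other than whole where a program divides reads between similar sequences. Of the 88 tested genes, 58 (65.9%) had a count further than 0.005 from a whole number in at least 1 library, against 37.3% of 14217 other tested genes, and 33 had such counts in all 9 libraries. Copies that are no members but carry a ribosomal protein name in RefSeq numbered 77, of which 44 passed the FPKM limit. Each of the 77 canonical genes was then summed with its copies, an alternative that was chosen after the data had been seen. Of 52 families with a non-whole gene, 22 became whole in all 9 libraries on summing, within 0.02. On summing, the spread between replicates narrowed for some gene IDs and widened for others. The coefficient of variation was lower for 24 of 45 IDs in sham, 28 of 46 in SNI and 23 of 45 in SNI + G15, and its median went from 8.58% to 8.1%, from 5.79% to 4.52% and from 8.15% to 9.39%. IDs with a coefficient over 20% went from 6 to 1, from 6 to 1 and from 5 to 2. In SNI, the coefficient of variation of Rps20 went from 24.4% to 0.78%, that of Rps26 from 37.5% to 3.6% and that of Rpl9 from 32.7% to 5.16%, while in SNI + G15 that of Rps20 went from 8.06% to 10.2%.

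After summing, 74 of 77 families rose in SNI + G15 against SNI, with 8.11% of all rows called higher and 7.4% lower in that fit. The median log2 fold change was 0.43. The values ran from 0.21 to 0.72, so Rpl30 and Rpl35a no longer stood apart. All 31 families of the 40S subunit rose. Rpl12, Rpl37 and Rplp1 were the 3 families not called (edgeR adjusted p = 0.0869, 0.111 and 0.215). Of the 30 genes with whole counts in all 9 libraries 29 were higher, with a median of 0.46.

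**Figure D4:**
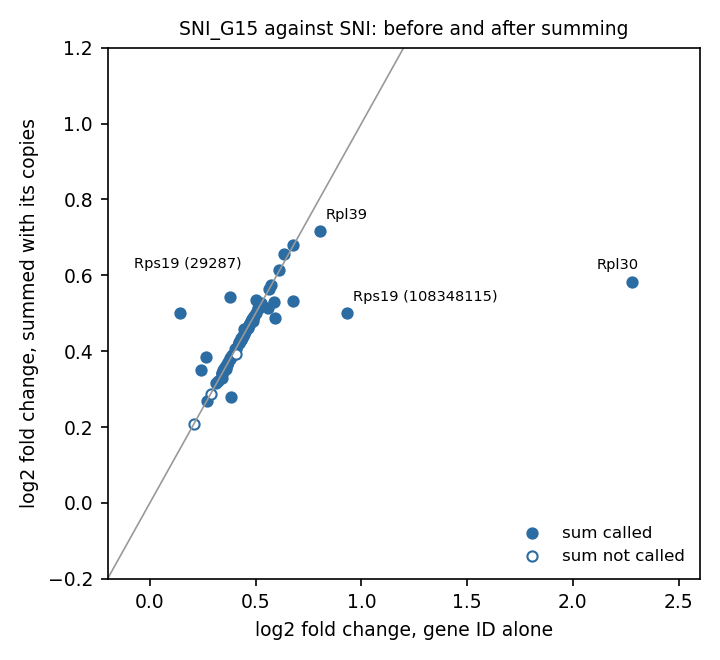
log2 fold change of SNI + G15 against SNI for each canonical gene alone (x axis) and summed with its copies (y axis), with the line of equality. Rpl30 moves from 2.28 to 0.58 and the 2 IDs of Rps19 from 0.14 and 0.93 to 0.50, while most points stay on the line.

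Ribosomal protein messages are short, and short genes as a class were higher in SNI + G15. The effective length of the tested members was 264 to 2516 bases with a median of 538, against a median of 2454 for the other tested genes. Other genes of up to 500 bases were shifted by a median of 0.32 on the log2 scale between SNI and SNI + G15 (237 genes), and members by 0.49 (34 genes). Between 500 and 1000 bases the medians were 0.19 (1161 genes) and 0.42 (46 genes). Between 1000 and 2000 bases they were 0.08 (4057 genes) and 0.35 (7 genes). Other genes of over 4000 bases had a median of -0.10. Of the short other genes, 24.9% were called higher up to 500 bases and 19.2% from 500 to 1000 bases, and of the members 79.4% and 89.1%.

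When the trend of counts on length over the other genes was taken out in each library, 53 of 88 members were called higher and the median fell to 0.20. In that fit 6.05% of all tested genes were called higher and 5.93% lower. With the trend taken over all genes, the median was 0.19 and 44 members were higher, a count for which no share of all tested genes is given. With the trend of other genes taken out 22 of the 75 calls were lost, among them those of Rpl10, Rpl22l1, Rpl39l, Rps9, Rps27 and Rps27l (edgeR adjusted p = 0.0587 to 0.394). With that of all genes, those of Rplp2 and Rpl23a were lost too (0.0809 and 0.0731). The 7 members with over 1000 and up to 2000 bases were all called higher both without the correction (10.2% of the 4057 other genes of that length) and with it (5.4%), with medians of 0.35 and 0.25. For members of up to 500 bases the median went from 0.49 to 0.20, and 17 of 34 were called higher with the correction. The part of length in the difference was not tested beyond these values.

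**Figure D5:**
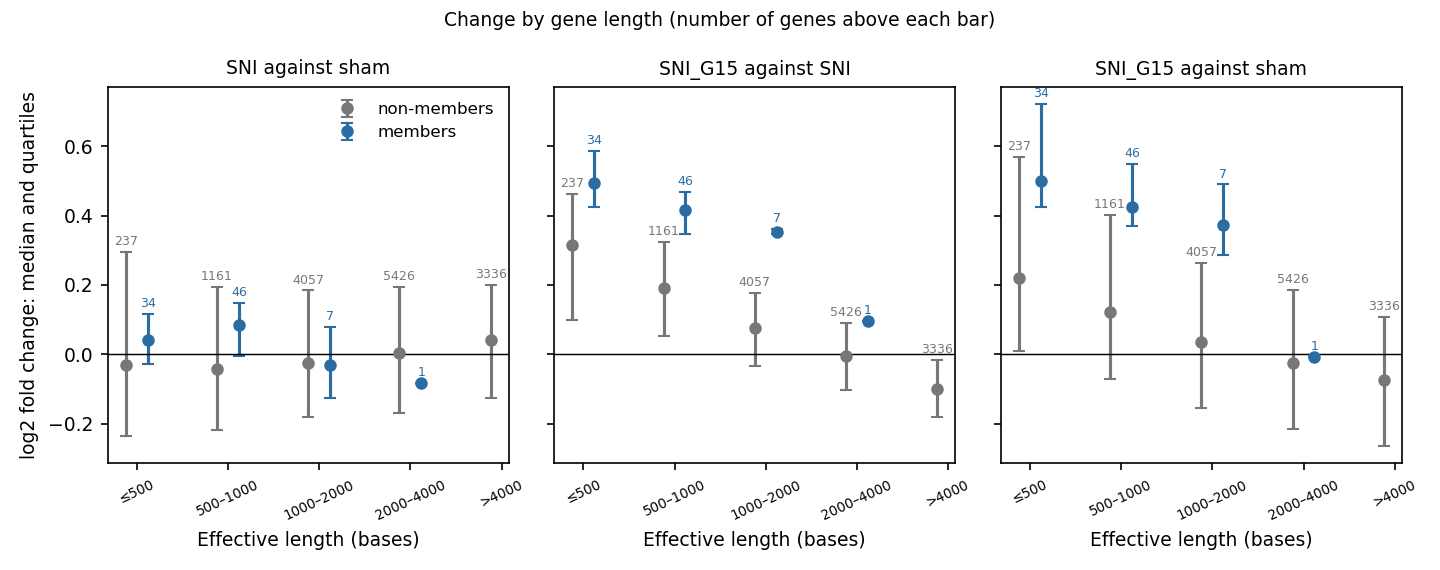
Median log2 fold change with quartiles by effective length for members and for other tested genes (the number of genes stands above each bar). In SNI + G15 against SNI the other genes go from 0.32 at up to 500 bases to -0.10 at over 4000, and members lie above them in the 3 shortest bins.

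The comparison of SNI with sham asks what the injury changed. The count of these genes called higher depended on the treatment of gene length. By edgeR's quasi-likelihood test, 15 of 88 were higher and 3 lower, which is 17.05% and 3.41%, against 23.3% and 22.4% of all tested genes. The median log2 fold change was 0.05, beside 0.001 over all genes. Both shares were below those of all genes, but with the length trend over other genes taken out 42 of 88 (47.7%) were higher, against 24.6% of all tested genes, and with that over all genes 42.05% were. The calls also depended on single libraries, with 31 genes higher without sham replicate 2 but 6 higher and 9 lower without sham replicate 1.

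Among the genes that rose, all 3 of the P stalk were present. Rplp1 read 170, 138 and 139 FPKM in sham and 174, 190 and 248 in SNI (log2 fold change 0.43 ± 0.12, edgeR adjusted p = 0.0154, and 0.0568 without sham replicate 3). Rplp0 and Rplp2 rose by 0.13 and 0.15 (edgeR adjusted p = 0.0486 and 0.0417). Rplp0, Rplp2 and Rpsa each lost their call without sham replicate 1, sham replicate 3 or any 1 SNI replicate (edgeR adjusted p from 0.0917 to 0.124, 0.0664 to 0.128 and 0.0667 to 0.153). Rpl12, which binds at the base of the stalk, read 159, 175 and 174 FPKM in sham and 214, 212 and 228 in SNI (0.34 ± 0.051, edgeR adjusted p = 0.000355). Rps2, at the entry of the message channel, read 392, 445 and 432 FPKM against 521, 534 and 528 (0.29 ± 0.047, edgeR adjusted p = 0.000517). Neither gene's groups overlapped. Rpl15 rose by 0.19. Rpsa was at the threshold (log2 fold change 0.13, edgeR adjusted p = 0.0499). With all 9 libraries in one edgeR fit Rplp0, Rplp2 and Rpsa were not called (adjusted p = 0.0928, 0.213 and 0.157), and by DESeq2 Rplp1 was not (adjusted p = 0.0607).

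The 3 genes that fell were Rpl3, Rps10l1 and Rpl22l1. Rpl3 read 300, 338 and 294 FPKM in sham and 274, 278 and 273 in SNI, with no overlap (log2 fold change -0.21 ± 0.05, edgeR adjusted p = 0.00676). It had whole counts in all 9 libraries. Rpl22l1 fell by 0.24 ± 0.083 on the log2 scale with overlapping groups (edgeR adjusted p = 0.0373, and 0.0652 to 0.127 without sham replicate 2 or 3 or SNI replicate 2 or 3). Rps10l1, a copy of Rps10, fell by 0.23 ± 0.056 while Rps10 rose by 0.21 ± 0.066 (edgeR adjusted p = 0.00616 and 0.0233). The call of Rps10 was lost without sham replicate 1 or 3 or SNI replicate 1 or 2 (0.062 to 0.092). Their sum was not called (log2 fold change 0.03 ± 0.052, edgeR adjusted p = 0.617). After summing copies, 10 of 77 families were higher and 1, Rpl3, was lower, against 23.5% and 22.6% of all rows in that fit. With the length trend over other genes taken out, 3 members were lower, against 23.4% of all tested genes, and the median was 0.12.

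SNI + G15 against sham shares its libraries with the other 2 comparisons and is given beside them. Here 81 of 88 genes were higher and none lower, against 21.4% and 21.9% of all tested genes (at an unadjusted p below 0.05, 82 and 0, and by DESeq2, 79 and 0). The median log2 fold change was 0.46. The genes called include Rpl39l, which passed the FPKM limit only through SNI + G15 libraries, so its call is no support here either. All 32 gene IDs of the 40S subunit rose, with Rps19 counted under 2 IDs. Rpl39 rose by 1.02 ± 0.12, Rps20 by 0.93 ± 0.15, Rpl37 by 0.76 ± 0.15 and Rps2 by 0.73 ± 0.082. The rows named as copies of Rps20 held counts too, and the summed family rose by 0.41. From which gene these reads came was not tested. Rpl3, which had fallen in SNI, differed by 0.12 ± 0.066 and was not called (edgeR adjusted p = 0.164, and 0.0446 without sham replicate 2). With the length trend of other genes taken out, 75 of 88 were called higher, against 23.9% of all tested genes, and the median was 0.30.

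Other genes of the translation machinery were read from lists of known members. Translation factors whose messages also carry the TOP tract rose in SNI + G15 against SNI in 10 of 24 cases and none fell, against 7.98% and 7.25% of all tested genes, and the list's median was 0.21 on the log2 scale. DESeq2 called 14 higher and 0 lower, and at an unadjusted p below 0.05 edgeR gave 18 and 0. They included the elongation factor Eef1a1 (0.31 ± 0.029, 1725 bases) and Tpt1 (0.31 ± 0.047). With the length trend taken out, 5 of 24 were called higher, against 6.05% of all tested genes. In SNI against sham, 7 rose and 1 fell, against 23.3% and 22.4% of all tested genes, led by the poly(A)-binding protein gene Pabpc1 (0.40 ± 0.035) and, downward, Eif4b (-0.19 ± 0.037).

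Biogenesis factors assemble ribosomes without being part of them. Of 57 such factors, 3 rose and 2 fell in SNI + G15 against SNI, with a median of 0.09, where 7.98% and 7.25% of all tested genes were called. Fibrillarin, the methyltransferase of ribosomal RNA encoded by Fbl, rose by 0.38 ± 0.086, and Nolc1 fell by 0.17 ± 0.04 on the log2 scale. None of 17 genes of RNA polymerase I and its regulators passed by edgeR in this comparison (median 0.08), where 5 had an unadjusted p below 0.05 (4 higher, 1 lower) and DESeq2 called 1. With injury, 13 of the 57 rose and 2 fell, and the 13 are a share near the 23.3% of all tested genes called higher. Rrp12 rose by 0.69 ± 0.053 and Myc, the transcription factor that drives ribosome production, by 1.09 ± 0.097 (edgeR adjusted p = 2.37e-06 and 7.2e-06). Of 20 genes of mTORC1 and the regulators of TOP messages, 2 rose in SNI + G15 against SNI, near the 7.98% of all tested genes. They were the inhibitors Ddit4 (0.28 ± 0.047) and Eif4ebp1 (0.42 ± 0.087). Eif4ebp1 had also risen in SNI against sham (0.79 ± 0.087).

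Mitochondrial ribosomal proteins make up a separate ribosome and are encoded by short genes too. In SNI against sham, 23 of 75 fell and 1 rose, with a median of -0.14, against 22.4% lower and 23.3% higher among all tested genes. Those that fell included Mrps35 (-0.38 ± 0.067) and Mrpl42 (-0.35 ± 0.064). From SNI to SNI + G15, 16 of 75 rose and none fell, against 7.98% and 7.25% of all tested genes, with a median of 0.14, and Mrpl33 rose by 0.52 ± 0.11. By DESeq2 13 rose and 0 fell, and at an unadjusted p below 0.05 edgeR gave 30 higher and 1 lower. With the length trend taken out, 2 rose and 1 fell, against 6.05% and 5.93% of all tested genes, and the median was 0.01. The difference between the cytosolic and mitochondrial genes was not tested.

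Marker lists of other cells moved between the groups as well. All 10 fibroblast markers rose in SNI + G15 against SNI (7.98% of all tested genes did), by a median of 0.48 on the log2 scale, and their summed level was 1903 to 1972 FPKM in SNI and 2917 to 3116 in SNI + G15. Fbln1, of 2531 bases, rose by 1.05 ± 0.072. Of 9 Schwann cell markers 6 rose, with summed levels of 2516 to 2564 and 2686 to 2806 FPKM. Of 9 erythroid markers 8 fell, with summed levels of 1486 to 1534 and 884 to 1034 FPKM. Of 11 neuronal markers 1 rose and 3 fell, and of 9 macrophage markers 2 rose. Between sham and SNI, where 23.3% of all tested genes were called higher and 22.4% lower, all 9 tested erythroid markers, 8 of 9 macrophage markers and 5 of 7 neutrophil markers rose. Of 9 Schwann cell markers 1 rose and 6 fell, of 11 neuronal markers 3 rose and 6 fell, and of 10 fibroblast markers 3 rose and 5 fell. No listed marker of these cell types read 0 in any library. The part of these shifts in the levels of ribosomal protein messages was not tested.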

How the data were processed

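The 9 DRG libraries were analysed from 2 deposited units. The authors deposited estimated counts per gene, unscaled and often fractional, and FPKM values, which divide counts by library size and gene length. The aligner is not given in the sources used here, the labels list the mouse builds GRCm38 and mm10 for these rat libraries, and their extraction text names another cell type. Columns named for a control were taken as sham. Deposited fold changes, p-values and TPM were not used.

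Counts were rounded and fitted for 2 groups at a time by the quasi-likelihood test of edgeR 4.0.16, scaled by TMM, under R 4.3.3. The 14305 genes that reached 1 FPKM in some library entered the fit. Called means a Benjamini-Hochberg adjusted p below 0.05, and intervals are standard errors. Alternatives used DESeq2 1.42.0, limma 3.58.1 on log2 FPKM, other scalings, filters and samples, a replicate block, sums over copies, and an offset for the loess trend of counts on effective length (count divided by FPKM). The loess was made robust after a first form had shifted the median of all genes. On counts simulated for SNI + G15 against SNI over 14305 genes, 89.5% of 200 genes changed by 1 on the log2 scale were recovered with 12 false calls. The members' median of 0.43 was smaller than this change, so the recovery does not apply to it. With the same linear length slope put into all simulated SNI + G15 libraries and no gene changed, the members' median was 0.208, and -0.005 after the length offset. The offset is built to remove such a trend. The measured slopes differed between these libraries (-0.03, -0.041 and -0.116), so 0.208 does not measure the part of length in the observed median.

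The members, lists and alternatives were chosen with earlier results of these data known. Named genes are the 6 largest called changes per direction without overlap, members over 3 median absolute deviations from the median, paralog pairs, 10 well-known members, the 5 most abundant, members below the filter, and up to 3 called genes per list and direction. Names follow RefSeq of GRCr8, which matched 86 of 89 members, and 18599 of 20194 genes. No mitochondrially encoded message was found in the table. A few genes covered by these rules are not reported here.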

Additional observations from a re-analysis of the deposited data

How the results depend on the processing

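In SNI + G15 against SNI, no alternative called a member lower. The share called higher was 85.23%, 50% with the length trend of all genes taken out, and 64.8% to 90.9% when single replicates were left out, and the median log2 fold change of 0.43 fell to 0.20 and 0.19 with the trend of other genes or of all genes taken out and was 0.37 to 0.48 without single replicates. In SNI + G15 against sham, the median of 0.46 was 0.30 and 0.27 with these length trends out and 0.40 to 0.52 without single replicates, with 84.1% to 94.3% called higher. In SNI against sham, the share called higher (17.05%) was 9.09% with all 9 libraries in one fit, 47.7% and 42.05% with the length trends out, 10% among genes with whole counts, and 6.82% to 35.2% without single replicates. The share called lower (3.41%) was 1.30% after summing copies, 6.67% among whole genes, 1.28% among canonical genes and 2.27% to 10.2% without single replicates. The median was 0.006 to 0.11 without single replicates. Leaving out genes or libraries changes what is counted, and the other causes were not tested. The share of all tested genes called is given only for the main fits, those with the trend of other genes out, and the summed fits. Counts and shares of members in the other fits, DESeq2 among them, therefore stand without it.

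Directions turned for Rpl30 (-0.017) and Rps10l1 (0.035) in SNI against sham after summing copies. In SNI + G15 against SNI they turned for Rps19 ID 29287 (-0.12 and -0.14 with the trend of other and of all genes out) and, with the trend of all genes out, for Rplp1 (-0.011) and Rpl12 (-0.0088). These 3 were not called in the fits that turned them. Of 1169 values of named genes under alternatives, 87 lost a call and 13 gained one.

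Same-numbered replicates did not deviate together over all tested genes (correlations of -0.128 to 0.069). This gave no sign that the numbers pair the samples, but it cannot exclude a pairing that is weak or limited to few genes. With a replicate block, 72 members were higher in SNI + G15 against SNI, 16 higher and 2 lower in SNI against sham, and 80 higher in SNI + G15 against sham. The 16 are 18.2% of the members, and the main fit called 23.3% of all tested genes higher. The share of all tested genes called with the block is not given. Low counts limit Rpl39l, Rpl10l, Rpl30l1, Rpl3l and Rpl35a.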
